A study of Sus scrofa with 20 samples.

Results

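The T cell genes CD2, CD8A, CTLA4, CYTIP and MYO1G were followed in the backfat of 20 pigs. They were chosen by symbol, and for MYO1G the locus with the higher mean count was taken, which gave 5 loci of 23483 in the deposited tables. The genes were picked with their difference between females and castrated males in these animals already known, so that difference is described here without a test. Backfat is the subcutaneous fat of the back. The animals were Italian Large White pigs, 10 females aged 244 ± 5.64 days and 10 castrated males aged 240 ± 4.53 days (mean ± SD), all untreated otherwise as far as the labels say. All shared 1 housing and 1 diet, weighed 150 to 160 kg and gave 1 library each, so the libraries are separate animals. Polyadenylated RNA was read as 100 bp pairs. Libraries are named by labelled sex and a number that only follows the order of deposition.

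T cells recognise antigen through the T cell receptor, whose signal passes through the CD3 chains and the kinase LCK. The coreceptors CD4 and CD8 bind MHC molecules, costimulatory receptors such as CD28 strengthen the signal, and inhibitory receptors such as CTLA4 limit it. Fat tissue holds resident T cells, NK cells and many macrophages beside its fat cells. CD2 is an adhesion receptor of T and NK cells that binds CD58. CD8A is the alpha chain of CD8, carried by cytotoxic T cells and, in pigs, also by NK cells. CTLA4 competes with CD28 for CD80 and CD86 and is abundant on regulatory T cells. CYTIP binds cytohesins and tunes integrin adhesion in lymphocytes and dendritic cells. MYO1G is a class I myosin of blood cells that sits at the plasma membrane and shapes how T cells move. None of the 5 is found in T cells alone. In whole tissue, fewer cells of a type and less RNA per cell cannot be told apart.

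Libraries held 25754778 to 51248122 counts (median 36922247). The mitochondrially encoded loci took 8.49 to 26.3% of counts. The library labelled female 10 and the library labelled castrated male 10 went against their labels at the loci XLOC_042132 and XLOC_042813, which otherwise separated the sexes. XLOC_042132 stood at 547 to 1233 CPM (counts relative to library size, scaled by TMM factors) in the other 9 females and at 0 to 1.87 in the other 9 castrated males, but at 0.409 in female 10 and 989 in castrated male 10. XLOC_042813 ran the other way, with 314 CPM in female 10 and 0 in castrated male 10. The log2 sex differences of the 5 genes are therefore given with and without this pair. Their group means, medians, extremes and overlap counts include it, as do the values of other genes and lists. Correlations include it unless stated. Castrated males 1 and 6 ranked among the 3 highest libraries for all 5 genes, and results that rest on them are also given without them.

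All 5 genes were measured in every library, at low levels. On the FPKM scale, which allows comparison between genes because it divides by transcript length, CD2 (ENSSSCG00000006736) was highest at 5.92 ± 2.92 (SD, n = 20). MYO1G (ENSSSCG00000016742) followed at 4.39 ± 1.42 FPKM and CYTIP (ENSSSCG00000029753) at 3.75 ± 1.89 FPKM. CD8A (ENSSSCG00000008217) stood at 2.87 ± 1.37 FPKM, and CTLA4 (ENSSSCG00000016122) was lowest at 0.291 ± 0.309 FPKM. The order of the first 4 was not fixed from animal to animal. CD2 exceeded MYO1G in 14 of 20 libraries, MYO1G exceeded CYTIP in 16, and CYTIP exceeded CD8A in 13, and each of these mean differences was smaller than its SD over libraries. CD8A exceeded CTLA4 in 20 of 20 libraries. CTLA4 rested on 4 to 117 counts per library, so that at 4 counts sampling alone gives an error of 50% of the value. The other genes rested on 47 to 586 counts (CD8A), 111 to 640 (MYO1G), 131 to 969 (CD2) and 247 to 1325 (CYTIP). These errors cover counting only.

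The partners of the 5 genes spanned a wide range of levels. CD3D, a chain of the T cell receptor complex, had 2.05 ± 0.891 FPKM, and LCK had 2.81 ± 0.956. CD247, another chain of that complex, was far higher at 39.3 ± 9.07 FPKM. CD58, the ligand of CD2, was higher at 15.5 ± 1.48 FPKM and varied little, from 13.0 to 18.1 over the 20 libraries. CD48, another member of the CD2 family, varied widely, from 2.0 to 22.5 FPKM. Of the coreceptors, CD8B had 0.667 ± 0.274 FPKM and CD4 1.34 ± 1.34 FPKM. The FPKM ratio of CD8B to CD8A had a mean of 0.275 and ran from 0.104 to 0.634. The ratio of CD4 to CD8A had a median of 0.338 and reached 3.35 in female 9, where CD4 stood at 21.7 CPM. CTLA4 sat among other receptors of its family that were equally scarce, with CD28 at 0.172 ± 0.155 FPKM and ICOS at 0.323 ± 0.171 FPKM. Its ligands were more abundant, CD86 at 5.40 ± 2.86 FPKM and CD80 at 2.12 ± 1.15 FPKM. FOXP3, the regulatory T cell factor, had 1.41 ± 0.314 FPKM. Among the cytohesins that CYTIP can bind, CYTH1 had 27.0 ± 6.73 FPKM and the blood cell member CYTH4 4.25 ± 1.85 FPKM. MYO1F, another blood cell class I myosin, had 4.75 ± 2.54 FPKM, while the widely expressed MYO1C had 141 ± 27.0 FPKM.

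**Figure D1:**
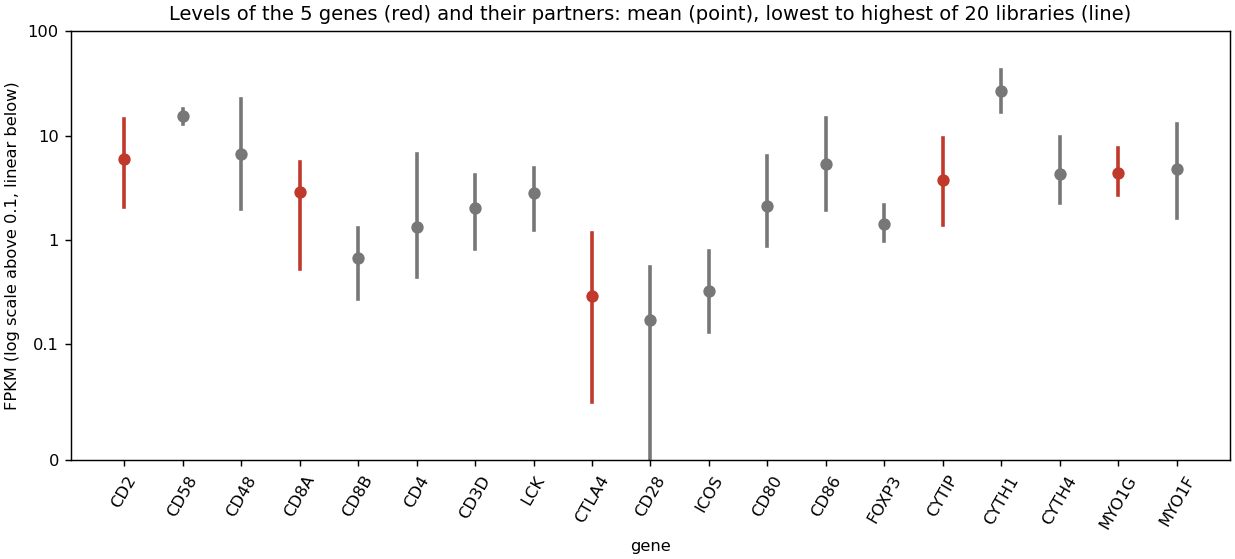
FPKM of the 5 genes (red) and of genes for their ligands, partners and relatives (grey); the point is the mean and the line runs from the lowest to the highest of 20 libraries, on an axis that is logarithmic above 0.1 and linear below. CTLA4, CD28 and ICOS had means of 0.291, 0.172 and 0.323, while CD58 stayed between 13.0 and 18.1.

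Mean levels of all 5 genes were higher in castrated males than in females, with ratios of the CPM means from 1.52 (CYTIP) to 2.86 (CTLA4), and the groups overlapped for every gene. CD2 ran from 4.25 CPM (female 2) over a median of 8.61 to 15.0 (female 1) in females. In castrated males it ran from 6.82 (castrated male 5) over a median of 13.0 to 23.0 (castrated male 1). Females averaged 8.50 ± 3.41 and castrated males 13.4 ± 4.50 CPM (SD, n = 10 each), a fitted log2 difference, females minus castrated males, of -0.65 (SE 0.227). Below every castrated male lay 4 females, and above every female lay 3 castrated males. The 4 include female 10, at 4.87 CPM, so their count depends on its label.

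CD8A ran from 1.30 CPM (female 2) over a median of 5.34 to 9.64 (female 1) in females, and from 4.80 (castrated male 2) over 8.02 to 13.9 (castrated male 1) in castrated males. The means were 5.25 ± 2.57 and 8.43 ± 3.35 CPM, a log2 difference of -0.68 (SE 0.294). One female exceeded the castrated male median, and 3 castrated males lay below the female median. CD8B, which pairs with CD8A on cytotoxic T cells, averaged 1.03 ± 0.455 CPM in females and 1.04 ± 0.371 in the other group, with a log2 difference of -0.01 (SE 0.266). CD4 had a log2 difference of 0.29 (SE 0.420), with the single high value in female 9.

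CTLA4 ran from 0.0980 CPM (female 8) over a median of 0.288 to 0.821 (female 1) in females. In castrated males it ran from 0.294 (castrated male 5) over a median of 0.672 to 2.72 (castrated male 6), with castrated male 1 close behind at 2.59 CPM. The means were 0.368 ± 0.236 and 1.05 ± 0.890 CPM, a log2 difference of -1.50 (SE 0.444). Castrated males 1 and 6 stood far above the other 8, and without them the castrated male mean was 0.654 ± 0.320 CPM and the log2 difference -0.81.

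CYTIP ran from 9.08 CPM (female 4) over a median of 11.5 to 17.1 (female 6) in females, and from 9.98 (castrated male 5) over 18.4 to 31.5 (castrated male 1) in castrated males. The means were 11.8 ± 2.48 and 17.9 ± 5.88 CPM, a log2 difference of -0.60 (SE 0.165). No female exceeded the castrated male median, and 6 castrated males lay above every female, among them castrated male 10 at 18.1 CPM. MYO1G ran from 4.12 CPM (female 10) over a median of 4.57 to 9.22 (female 1) in females. In castrated males it ran from 5.05 (castrated male 10) over a median of 8.08 to 15.2 (castrated male 1). The means were 5.25 ± 1.59 and 8.25 ± 2.93 CPM, a log2 difference of -0.65 (SE 0.191), and 7 females lay below every castrated male. Both MYO1G minima belong to the libraries numbered 10, so the count of 7 depends on their labels.

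**Figure D2:**
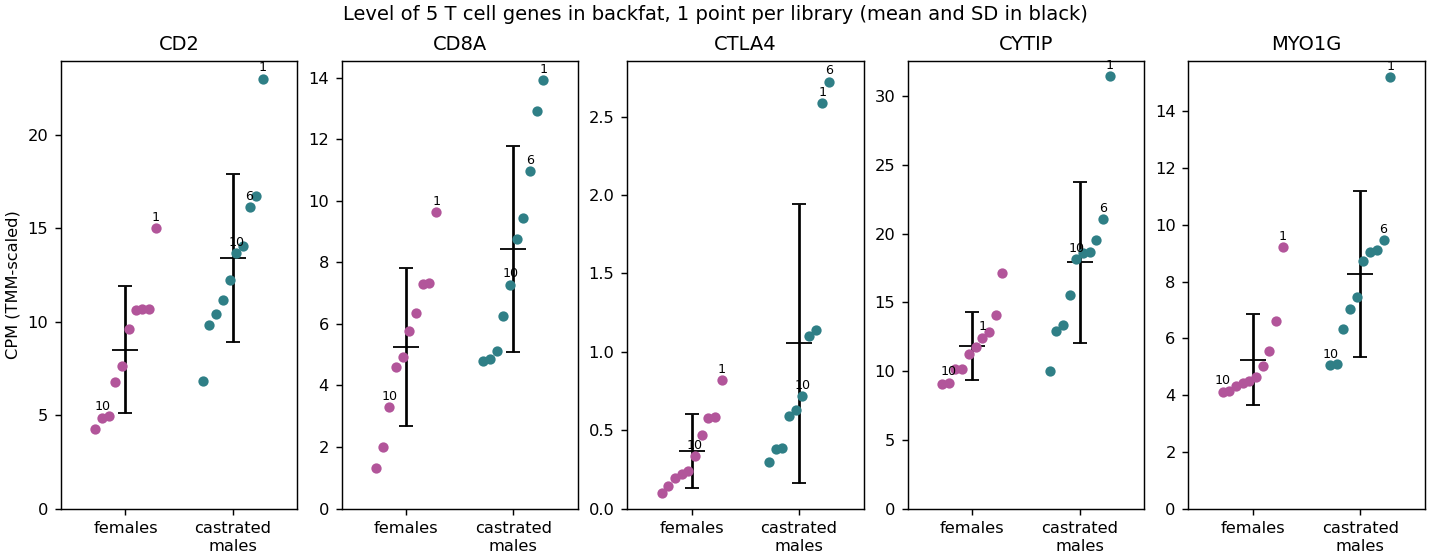
CPM of each gene by library (points), with the group mean and SD in black; 1, 6 and 10 mark libraries of those numbers, with 6 marked for castrated males only. Castrated males 1 and 6 are at or near the top in every panel, and females and castrated males overlap for all 5 genes.

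Across all loci, 0 of 21587 (0%) passed an adjusted p of 0.05 between the sexes in edgeR's quasi-likelihood test. An unadjusted p under 0.05 was reached by 935 (4.33%), and DESeq2 called 5 loci (0.0213%). Leaving out the libraries numbered 10 raised edgeR's count to 18 (0.0834%), and the log2 differences became -0.58 for CD2, -0.64 for CD8A, -1.53 for CTLA4, -0.56 for CYTIP and -0.67 for MYO1G. Without castrated males 1 and 6 they were -0.47, -0.49, -0.81, -0.42 and -0.46 in the same order. Mean ages also differed between the groups, and with age in the model the log2 differences were -0.53, -0.59, -1.37, -0.52 and -0.53. Of the other genes on the T cell lists, which include ligands and partners carried by other cells such as CD58 and CD86, 73 of 105 had a locus and 72 could be tested. None passed, 17 had an unadjusted p under 0.05, and 63 of 72 had a value below 0, with a median of -0.40, against 49.1% of all tested loci below 0. List genes varied with the 5 genes between animals, with r = 0.939 for CD2 and the T cell receptor list once sex means were removed. The 5 were chosen with their difference known, so these counts are a description and not separate support.

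By role, the T cell receptor list had 14 of 14 tested genes below 0 with a median of -0.49, among them CD5 (-0.71, SE 0.258), CD6 (-0.76, SE 0.280) and CD3D (-0.55, SE 0.226). Its 6 genes of highest mean CPM were CD247 (-0.14), FYN (-0.12), LCP2 (-0.47), VAV1 (-0.61), RHOH (-0.55) and LCK (-0.32). The 7 costimulatory and checkpoint receptors had a median of -0.69, which counts CTLA4, a gene chosen with its difference known. Among the others CD28 was lowest (-1.37, SE 0.495), with ICOS at -0.69, CD40LG at -0.58, HAVCR2 at -0.07 and CD96 at -0.03. The 5 regulatory T cell genes also include CTLA4. Of the others, FOXP3 had -0.26 (SE 0.137), LRRC32 -0.15, IKZF2 -0.07 and the interleukin 2 receptor chain IL2RA 0.14 (SE 0.224). The 10 cytotoxic and NK cell genes had a median of -0.55, with GZMA, a granule protease, at -0.56 (SE 0.334) and PRF1, which forms pores, at -0.52 (SE 0.264). The homing and residence list had a median of -0.46, with the integrin chain ITGAL at -0.42, ITGB7 at -0.49, the interleukin 7 receptor IL7R at -0.58, S1PR1 at -0.11 and ITGAE at 0.03. The transcription factor list had a median of -0.23, with TBX21 at -0.45, TOX at -0.48, ETS1 at -0.06, GATA3 at -0.03 and TCF7 at 0.10. Values were also below 0 for 9 of 9 macrophage markers (median -0.63) and for 9 of 9 pan-leukocyte genes (median -0.57), which T cells and other blood cells share. The summed macrophage markers were between 204 and 606 CPM in females, between 306 and 1354 in castrated males, and highest in castrated male 1. For the pan-leukocyte sum these limits were 242 and 561 against 266 and 1327 CPM, again highest in castrated male 1. The part of macrophages and other blood cells in the difference of the 5 genes was not tested. Of the B and plasma cell list only MS4A1, CD22 and MZB1 had a locus, with sums of 1.61 to 7.22 CPM in females and 2.52 to 9.10 in castrated males.

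Between animals of the same sex, the 5 genes varied together, but not equally. Values were log2 CPM with each sex's mean removed, and p-values came from 100000 two-sided permutations of the 20 libraries with Benjamini-Hochberg adjustment over the 10 pairs. By Pearson's r, 8 of 10 pairs passed, and by Spearman's rho 5 did. The share of other gene pairs that would pass was not tested. CD2 and CD8A were the closest pair, with r = 0.884 and rho = 0.884 (adjusted permutation p = 0.0001 for both). The unadjusted p behind it, 1e-05, was the smallest these permutations can give. CD2 and MYO1G came next, with r = 0.763 and rho = 0.734 (adjusted permutation p = 0.00035 and 0.00205). CTLA4 tracked CYTIP, with r = 0.657 and rho = 0.633 (adjusted permutation p = 0.00443 and 0.00795).

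CD8A with MYO1G and CD2 with CYTIP both had r = 0.608 (adjusted permutation p = 0.00988 for both), with rho = 0.666 and 0.531 (adjusted permutation p = 0.00597 and 0.0342). CTLA4 with MYO1G had r = 0.575 but rho = 0.364 (adjusted permutation p = 0.0123 and 0.128). CYTIP with MYO1G had r = 0.532 and rho = 0.391 (adjusted permutation p = 0.0235 and 0.111), and r dropped to 0.141 without castrated males 1 and 5, the libraries farthest from the CYTIP median, so that this relation rested on them. That pair also did not pass with log2(FPKM + 0.1) in place of log2 CPM (r = 0.264, adjusted permutation p = 0.286). CD2 with CTLA4 had r = 0.478 and rho = 0.454 (adjusted permutation p = 0.0416 and 0.0640), and it no longer passed without any 1 of females 1, 3, 4, 6 and 7 or castrated males 1, 2, 5, 6, 7 and 8, with r from 0.375 to 0.475. The pairs that did not pass were CD8A with CYTIP, at r = 0.388 and rho = 0.462 (adjusted permutation p = 0.101 and 0.0640), and CD8A with CTLA4, at r = 0.288 and rho = 0.349 (adjusted permutation p = 0.216 and 0.131). Leaving out the 2 libraries farthest from the median of the first gene gave r = 0.866 for CD2 with CD8A, 0.726 for CD2 with MYO1G and 0.515 for CTLA4 with CYTIP.

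A few libraries set how many pairs passed. Without castrated male 1, 4 of 10 pairs passed, and without castrated males 1 and 6 only CD2 with CD8A and CD2 with MYO1G did. Without female 2, all 10 passed, with r = 0.520 for CD8A with CTLA4 and 0.550 for CD8A with CYTIP. Female 2 combined the lowest CD8A and CD2 of all 20 libraries with a CTLA4 level that ranked 9 of 20 and a CYTIP level that ranked 12 of 20.

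The size of r with marker lists also varied from gene to gene, but differences between genes were not tested. Each gene was set against 7 marker lists (mean z-score of each list, the 5 genes left out) and 2 library measures, 45 relations in all, of which 14 passed after adjustment by Pearson's r and 12 by Spearman's rho. All 5 genes passed with the T cell receptor list, with r from 0.653 (CTLA4) to 0.939 (CD2), and all 5 with the cytotoxic and NK cell list, with r from 0.556 (CYTIP) to 0.925 (CD2). Without castrated males 1 and 6, CTLA4 and CYTIP no longer passed with the T cell receptor list (r = 0.531 and 0.524, adjusted permutation p = 0.115 for both) or with the cytotoxic and NK cell list (r = 0.453 and 0.386, adjusted permutation p = 0.216 and 0.256). With the latter list, CTLA4 also no longer passed without any 1 of females 1, 3, 6 and 7 or castrated males 1 and 7, and CYTIP without any 1 of females 3, 6 and 10 or castrated males 1, 2, 6 and 7, with r from 0.426 to 0.560. CYTIP also did not pass with that list without both libraries numbered 10 (r = 0.531, adjusted permutation p = 0.0729). For CD2 and the T cell receptor list, rho was 0.931 (adjusted permutation p = 0.0001125 for both). CD8A had r = 0.860 and rho = 0.865 with the cytotoxic and NK cell list (adjusted permutation p = 0.0001125 for both) and r = 0.769 and rho = 0.836 with the T cell receptor list (adjusted permutation p = 0.000675 and 0.00036). MYO1G had r = 0.843 and rho = 0.777 with the T cell receptor list (adjusted permutation p = 0.0001125 and 0.000825).

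CTLA4 had its highest r with the macrophage list, r = 0.890 and rho = 0.883 (adjusted permutation p = 0.00018 and 0.0001125), against r = 0.653 and rho = 0.591 with the T cell receptor list (adjusted permutation p = 0.0102 and 0.0391). The difference between these correlations was not tested. Without castrated males 1 and 6, the libraries farthest out on the macrophage list, r with that list was 0.836 in the unchanged values and 0.816 when means and scores were recomputed (adjusted permutation p = 0.000675). The T cell receptor list holds VAV1, LCP2, RHOH and FYN, which other cells also express, and without these 4 genes CTLA4 had r = 0.506 with it (adjusted permutation p = 0.0672). CSF1R and MSR1, which mark macrophages, ran from 13.6 to 112 and from 5.09 to 115 CPM over the libraries, both lowest in female 7 and highest in castrated male 1. The part of macrophages in the CTLA4 signal was not tested.

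CYTIP and MYO1G also passed with the macrophage list, at r = 0.663 and rho = 0.571 (adjusted permutation p = 0.00665 and 0.0461) and at r = 0.621 and rho = 0.460 (adjusted permutation p = 0.0147 and 0.111). CD2 did so with r = 0.557 and rho = 0.556 (adjusted permutation p = 0.0354 and 0.0461). None of these 3 passed without castrated male 1, where r was 0.501, 0.448 and 0.444, and CD2 also did not pass without any 1 of females 1, 3, 6, 7 and 10 or castrated males 2, 5 and 7, with r from 0.501 to 0.553. Without both libraries numbered 10, CD2 did not pass with this list either (r = 0.548, adjusted permutation p = 0.0636). CD8A did not pass with the macrophage list, with r = 0.342 and rho = 0.435 (adjusted permutation p = 0.277 and 0.125), but female 2 decided this, since without it r was 0.666 (adjusted permutation p = 0.00559). By Pearson's r, no gene passed with the B and plasma cell, adipocyte, endothelial or fibroblast list, with total count or with the mitochondrial share. The highest of those r was 0.514, for MYO1G with total count (rho = 0.447, adjusted permutation p = 0.0627 and 0.117). CD2 with the B and plasma cell list had r = 0.510 and rho = 0.564 (adjusted permutation p = 0.0633 and 0.0461).

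**Figure D3:**
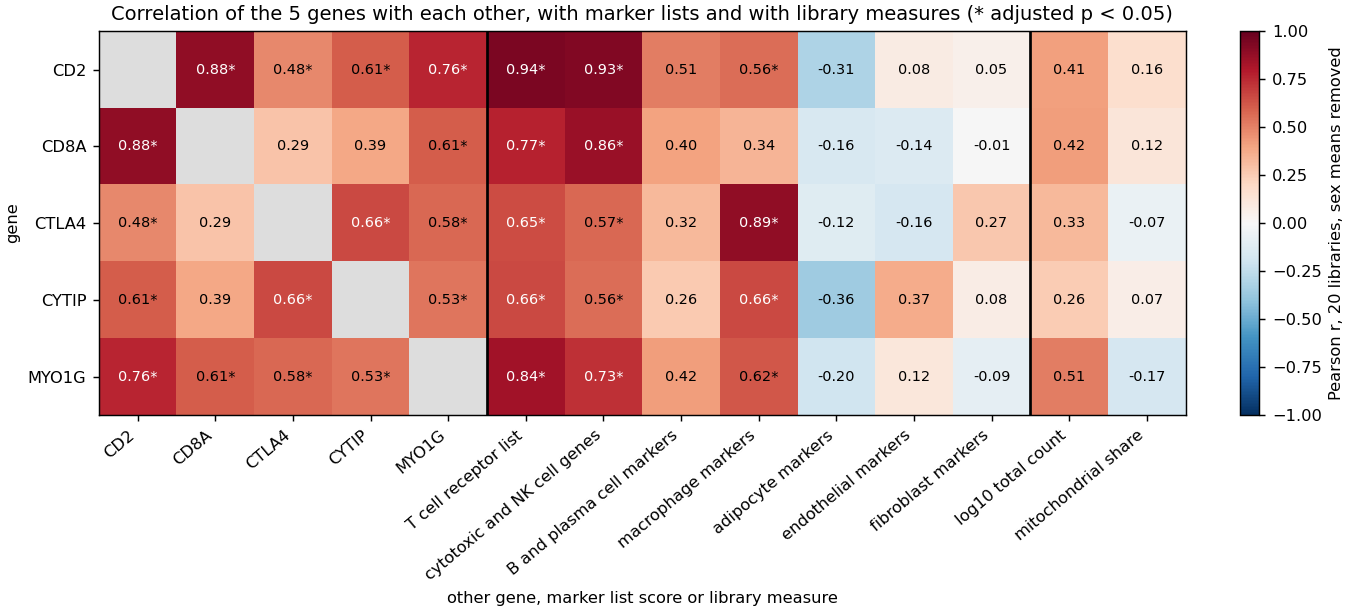
Pearson's r over 20 libraries, sex means removed, of each gene with the other 4, with 7 marker lists and with 2 library measures; stars mark an adjusted permutation p under 0.05. CD2 and the T cell receptor list gave r = 0.939, CTLA4 and the macrophage list r = 0.890.

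**Figure D4:**
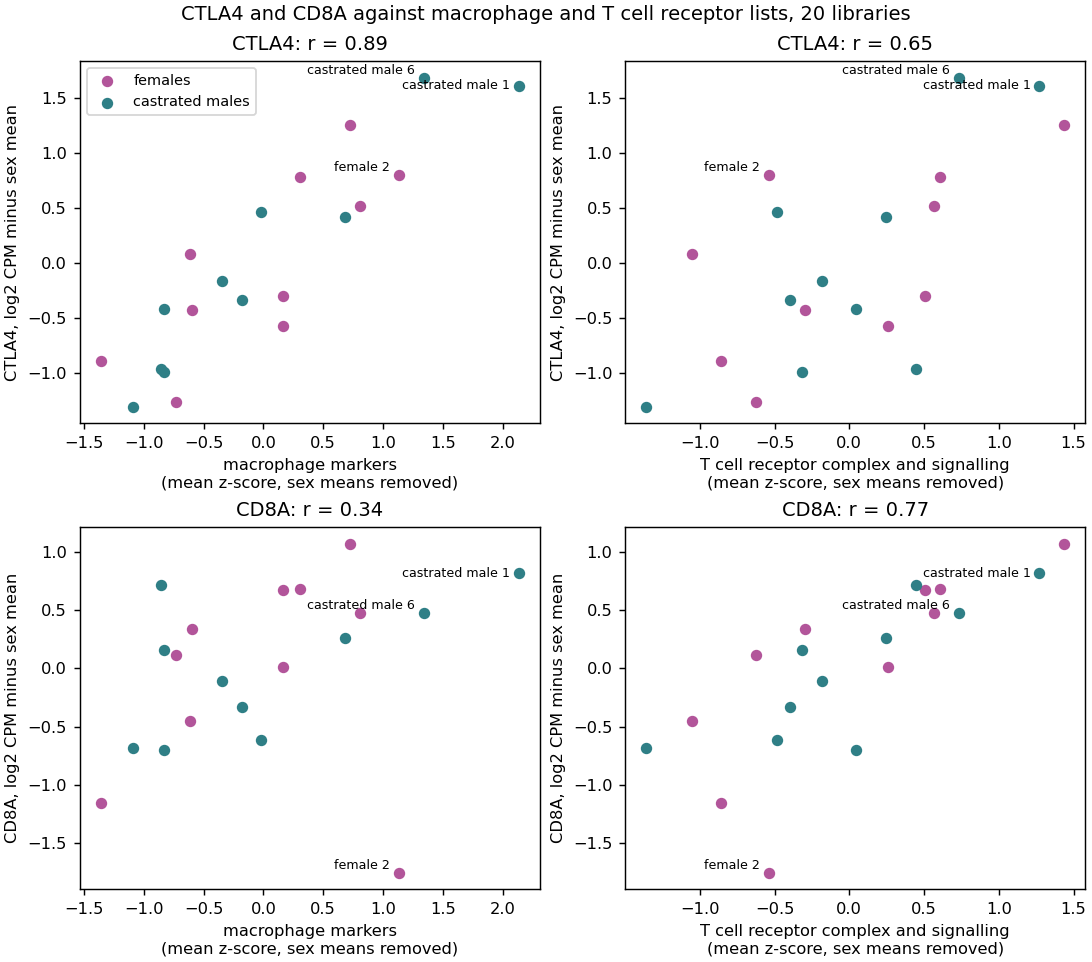
CTLA4 (top) and CD8A (bottom), as log2 CPM minus the sex mean, against the macrophage list (left) and the T cell receptor list (right), 1 point per library. Female 2 is the lowest point for CD8A, and castrated males 1 and 6 lie at the upper right for CTLA4.

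The nearest genes differed from member to member. Among 8543 loci with a symbol and a mean of at least 1 CPM, those with the highest r to CD2 over the 20 libraries were NLRC3 (0.948), CD3D (0.942), RAC2 (0.922), SEPTIN1 (0.918) and SH2D2A (0.909). For CD8A they were CD2 (0.884), SIT1 (0.882), BCL11B (0.859), SAMD3 (0.852) and KLRG1 (0.829). For CTLA4 they included PIK3AP1 (0.915), UBASH3B (0.904), VAV1 (0.893) and CSF1R (0.883), which encodes the receptor for the macrophage growth factor. For CYTIP they were TLR9 (0.871), SLC45A3 (0.858), MAP4K1 (0.842), INPP5D (0.838) and JAK3 (0.828), and for MYO1G they were PTPRCAP (0.886), ACAP1 (0.868), NUP210 (0.867), SASH3 (0.848) and GFI1 (0.844). CD8A ranked 9 among the loci nearest to CD2, MYO1G ranked 51 and CYTIP ranked 205. CTLA4, with a mean under 1 CPM, was not ranked itself. Among the loci nearest to CTLA4, CYTIP ranked 309, MYO1G 604, CD2 1078 and CD8A 2312. For CYTIP, CD2 ranked 333, MYO1G 651 and CD8A 1549. For CD8A, CD2 ranked 1, MYO1G 114 and CYTIP 600. For MYO1G, CD2 ranked 51, CD8A 334 and CYTIP 633.

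Spread between animals also differed by gene. With sex means removed, the SD of log2 CPM was 0.94 for CTLA4, 0.75 for CD8A, 0.54 for CD2, 0.42 for MYO1G and 0.38 for CYTIP. Set against loci within 2-fold of the same mean CPM, 89.7% had a lower SD than CD8A, 85.4% a lower SD than CTLA4 and 82.2% a lower SD than CD2. For CYTIP and MYO1G these shares were 67.2% and 55.6%.

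Age was not used to choose the genes and could be tested. None of the 5 passed, and each fitted slope was below 0 over the range of 233 to 250 days. Slopes of log2 level per 10 days, with sex in the model, were -0.27 (SE 0.254) for CD2, -0.18 (SE 0.340) for CD8A, -0.32 (SE 0.50) for CTLA4, -0.19 (SE 0.174) for CYTIP and -0.24 (SE 0.208) for MYO1G. The edgeR adjusted p ran from 0.879 to 0.942. Castrated male 5 was the oldest castrated male, at 249 days, and weighed on all 5 slopes. Without it they were -0.10 for CD2, -0.03 for CD8A, -0.06 for CTLA4, -0.06 for CYTIP and -0.13 for MYO1G. Each was the highest among the fits that left out 1 library. Other such fits gave slopes as low as -0.53, for CD2 without female 2. Across all loci 0 of 21587 (0%) passed, 1189 (5.51%) reached an unadjusted p under 0.05, and DESeq2 called 6 (0.0256%). An interval of 2 SE to each side of every slope spans 0, from -0.78 to 0.24 for CD2 and from -1.32 to 0.68 for CTLA4, so the intervals hold slopes in both directions.

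Fitted within each sex, slopes ran from -0.18 (CTLA4, SE 0.605) to 0.13 (CD8A, SE 0.423) per 10 days in females. In castrated males they ran from -0.74 (CD2, SE 0.398) to -0.48 (CYTIP, SE 0.296). Of these 10 slopes 0 passed, and over all tested loci 0 passed within either sex. Slopes within castrated males were not refitted without castrated male 5. The difference of slopes, females minus castrated males, was largest for CD8A (0.82, SE 0.683) and MYO1G (0.79, SE 0.391), and the edgeR adjusted p was 0.934 and 0.895. It was 0.76 (SE 0.504) for CD2, 0.48 (SE 1.11) for CTLA4 and 0.43 (SE 0.363) for CYTIP. No locus of 21587 (0%) passed this test in edgeR, while 1170 (5.42%) had an unadjusted p under 0.05. The value for CTLA4 turned to -0.20 without castrated males 1 and 6. Of the other 72 genes tested from the T cell, ligand and partner lists, 53 had an age slope below 0 with a median of -0.23, against 49.8% of all loci. Because list genes varied with the 5 genes, the count of 53 is no separate support for their slopes. None passed, and 4 of the 72 had an unadjusted p under 0.05, near the share of 5.51% over all tested loci. The 4 include the homing receptor CCR7 at -1.11 (SE 0.323) and CD28 at -1.13 (SE 0.474).

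**Figure D5:**
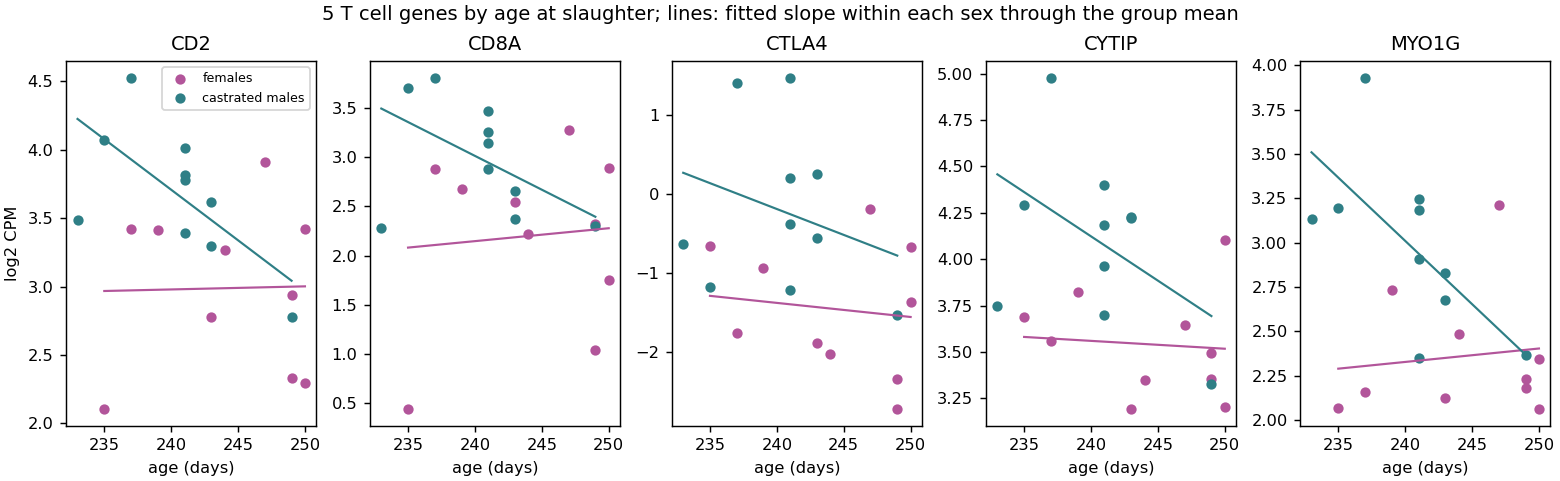
log2 CPM of each gene against age in days for females and castrated males, with the slope fitted within each sex drawn through the group mean. Lines for castrated males run downward, with slopes of -0.48 to -0.74 per 10 days, and none of these slopes passed the test. Castrated male 5, at 249 days, is the oldest of them.

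The deposited isoforms of each gene were 4 for CD2, CD8A and CYTIP, 2 for CTLA4 and 7 for MYO1G. For MYO1G, CD8A and CTLA4, the isoform of largest mean share was matched to a known transcript. For MYO1G, ENSSSCT00000018224 took 52.2 ± 11.1% (SD, n = 20) of the locus FPKM, and for CD8A, ENSSSCT00000008998 took 56.7 ± 14.7%. These shares fell to 31.2% in female 4 and to 27.0% in female 7. CD2 was divided among 3 isoforms with mean shares of 28.3, 31.0 and 35.7%. The CYTIP isoform of largest mean share, with no nearest known transcript, took 41.7 ± 13.2%. A pair matched to ENSSSCT00000031016 had mean shares of 32.5 and 22.1%. The first of this pair had 0.00156% in castrated male 10 but 67.2% in female 5. The CTLA4 isoforms took 40.6 ± 30.7% and, for the one matched to ENSSSCT00000036436, 59.4 ± 30.7%, but rested on the fewest counts. Locus FPKM followed CPM across libraries with r = 0.996 for CD8A, 0.984 for CTLA4, 0.959 for CD2, 0.942 for CYTIP and 0.894 for MYO1G, where both measures share the reads. For MYO1G, FPKM per CPM ran from 0.498 in castrated male 1 to 1.08 in castrated male 10.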

How the data were processed

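The authors deposited raw read counts and FPKM (fragments scaled to transcript length and to sequencing depth) for 23483 Cufflinks loci, and FPKM for 63418 isoforms. Per the submitters' processing notes, Cufflinks 2.1.1, Bowtie2 2.1.0.0, DESeq2 and TopHat2 2.0.8 were used, with the build Sscrofa10.2. For strand setting, counting tool and annotation release, the source texts used here say nothing. Symbols were matched by Ensembl identifier, which named 9360 loci. A further MYO1G locus, with 1 to 9 counts per library, was left out.

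The tests on counts were quasi-likelihood fits by edgeR 4.0.16 under R 4.3.3 (TMM, filterByExpr by group, 21587 loci, Benjamini-Hochberg at 0.05), with limma 3.58.1 on log2(FPKM + 0.1) and DESeq2 1.42.0 as alternatives. Only the edgeR age fit was tested on simulated counts, with planted age slopes. log2 CPM used a prior count of 2. Correlations used scipy 1.17.1 and numpy 2.4.6. Isoforms were tied to loci by sums of isoform FPKM that matched locus FPKM within 0.1%. No 2 of 190 library pairs had identical counts.

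The genes and gene lists were chosen with earlier results of these data known. Text names the 5 genes, passing list genes, up to 6 of each T cell list by mean level, and per gene the 5 loci of highest r; a few genes this rule would name are not reported here. Other list genes named (CD3D, CD5, CD6, CCR7, CSF1R, MSR1 and relatives of the 5 genes) were chosen after their values were seen.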

Additional observations from a re-analysis of the deposited data

Results flagged for a closer look

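Of 32 groups of 10 libraries tested for a library far from the rest (CPM and FPKM of the 5 genes, and FPKM ratios, in each sex), 6 had a gap to the nearest library, relative to the group's range, above Dixon's 95% critical value. Chance flags about 1 in 20 groups, and CPM and FPKM of a gene share their reads. Castrated male 1 stood apart for CYTIP, at 31.45 CPM with the next castrated male at 21.07, and at 9.574 FPKM with the next at 6.041. It also stood apart for MYO1G, at 15.19 CPM with the next at 9.451. Female 1 stood apart for MYO1G, at 9.216 CPM with the next female at 6.602, and at 5.837 FPKM with the next at 3.998. Female 2 had the highest FPKM ratio of CTLA4 to CD2 among females, 0.1025 with the next at 0.0482.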

How the results depend on the processing

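The number of loci past the threshold between the sexes was 0 in edgeR, 5 with DESeq2, 12 with limma on FPKM and 18 without both libraries numbered 10; leaving out 1 library gave 0 to 13, with 13 without female 10 and 7 without castrated male 10. For age it was 0, 6 with DESeq2 and 1 with limma on FPKM; leaving out 1 library gave 0 to 1. For the difference of age slopes it was 0, and 3 with DESeq2. The slope difference of CTLA4 turned from 0.48 to -0.20 without castrated males 1 and 6. Of the 10 gene pairs 8 passed, 2 without castrated males 1 and 6, and 4 to 10 when leaving out 1 library. Of the 45 relations with lists and library measures 14 passed, 7 without castrated males 1 and 6, and 10 to 17 when leaving out 1 library. The cause of these moves was not tested. CTLA4 with the macrophage list kept its direction and passed under each alternative, with r from 0.816 to 0.908. Settings that leave out castrated males 1 and 6, that drop 4 genes from the T cell receptor list, or that leave out a library other than castrated male 1 for the list relations were chosen after seeing the data. CTLA4 counts as low as 4 per library limit its precision. No paired analysis was possible because the labels give no replicate numbers shared between the groups.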
